A study of Homo sapiens with 20 samples.

Results

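The accessible chromatin described here lies in a span of 3.0 Mb of human chromosome 8, from 127700000 to 130700000 (hg19), around MYC, whose interval was set at 128748000 to 128754000. Members were all ATAC-seq peaks that overlapped this span in any of 7 peak lists, which gave 1501 of 1407450 peaks. No peak crossed an edge of the span (0 peaks). Peaks of different lists that overlapped by at least 1 bp were merged into sites, and the span held 384 of 372133 sites. The series profiled SW872, an established human liposarcoma line, in 20 libraries from cells stably transduced with 1 of 7 retroviral vectors. EV was the empty vector, TAZ4SA and YAP5SA were TAZ and YAP with serine-to-alanine changes that release them from Hippo kinase control, CAMTA1 and TFE3 were the full-length fusion partners, and TAZ-CAMTA1 and YAP-TFE3 (labelled Yap5SA-TFE3) were the fusions of epithelioid hemangioendothelioma. Each vector had 3 libraries from separate transductions, except TFE3 with 2, and the third EV library was labelled as redone. All vectors were expressed in 1 cell line that is not endothelial, which limits them as a model of the tumour. Each vector had 1 peak list with no values per library, so no difference between vectors could be tested, and the intervals given cover counting error only.

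MYC is a transcription factor of the basic helix-loop-helix leucine zipper family that pairs with MAX at E-box sequences and drives growth and proliferation. Its promoter is read by many signals, among them the TEAD factors through which YAP and TAZ act on chromatin. The gene sits in a region poor in other protein-coding genes, where enhancers far upstream and downstream act on it in a tissue-specific way. In the RefSeq gene order (GRCh38.p14, used for names only), the next gene upstream was the long non-coding RNA CASC11, followed further out by POU5F1B, CCAT2, CASC8, CASC21, CCAT1 and CASC19. The next gene downstream was PVT1, a long non-coding RNA whose locus harbours MIR1204, MIR1205, MIR1206 and MIR1207.

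The number of peaks in the span was 166 in EV, 163 in TAZ4SA, 276 in YAP5SA, 244 in CAMTA1, 171 in TFE3, 247 in TAZ-CAMTA1 and 234 in YAP-TFE3. YAP5SA had the densest span at 92.0 peaks per Mb, against 79.9 over chromosome 8, and TAZ-CAMTA1 covered the largest share of it, 4.22% of its bases against 2.41% in EV. In YAP-TFE3 the density was 78.0 peaks per Mb in the span and 82.9 over the chromosome.

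At the MYC promoter, chromatin was accessible in every list. A single merged site of 5780 bp, from 128746043 to 128751822, began 1.96 kb upstream of the MYC interval and reached into the gene. The area under the peaks of this site, a measure of both width and signal, was 19413 in EV, 12171 in TAZ4SA, 23530.5 in YAP5SA, 32295 in CAMTA1, 17588 in TFE3, 34764 in TAZ-CAMTA1 and 35303 in YAP-TFE3. These areas are not scaled for the strength of each list, whose summed area over the 60372 sites common to all lists was lowest in TAZ4SA and 2.89 times as large in YAP-TFE3. Within its own list the site ranked 199 of those 60372 sites in EV, 373 in TAZ4SA, 179 in YAP5SA, 112 in CAMTA1, 121 in TFE3, 116 in TAZ-CAMTA1 and 149 in YAP-TFE3. By area, which grows with width, it was therefore among the strongest accessible sites of each list. By the −log10 p of the summit, a site 109.2 kb downstream exceeded it in every list but EV, for example with 21.0 against 19.4 in CAMTA1.

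The peaks called at the promoter site were divided differently in TAZ4SA, the list with the lowest summed area. Whether the split follows from that lower area was not tested. In 6 lists 1 broad peak of 4614 to 5748 bp carried the summit, which lay 355 to 399 bp inside the MYC interval. In TAZ4SA the broad region was split by a short gap into a peak from 128746849 to 128749123 and a second from 128749236 to 128751281, with the summit of the stronger one 522 bp inside. EV too had a separate piece of 634 bp, from 128746098 to 128746731, before its broad peak. The promoter and gene together held 14 peaks, 4 of them in TAZ4SA, 1 each in YAP5SA and TFE3, and 2 in each other list. A second small site of 131 bp, from 128752033 to 128752163, was called in CAMTA1 and TAZ-CAMTA1, with areas of 21.7 and 26.7 that sit near the lowest area in any list (20.0).

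**Figure D1:**
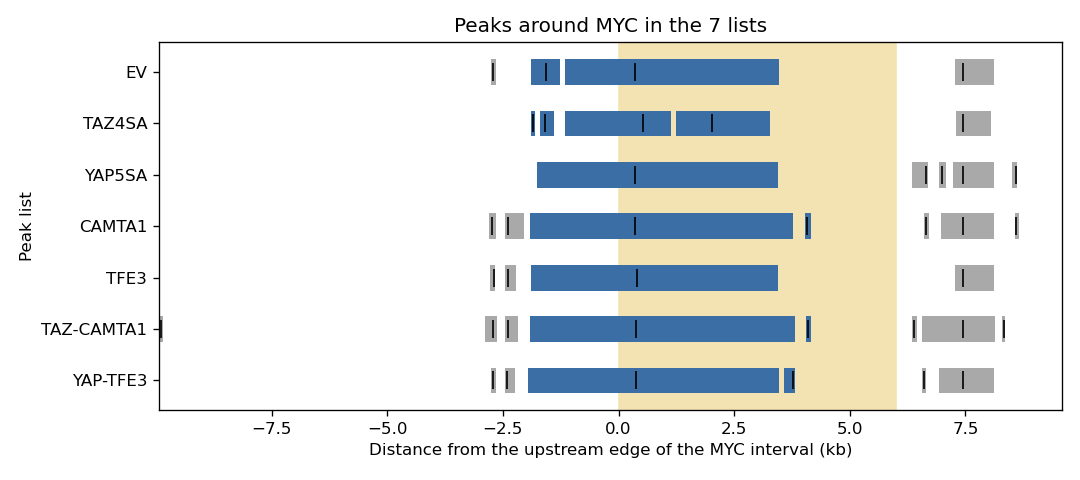
Peaks around MYC in each of the 7 lists, by distance in kb from the upstream edge of the MYC interval (shaded). Blue bars overlap the interval or the 2.0 kb before it, grey bars are neighbouring peaks and black ticks are summits. A reader should see 1 broad peak in most lists, 2 large pieces in TAZ4SA, and a separate site just downstream of the gene in every list.

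No direction against EV could be assigned to the promoter. As a share of the area over all common sites, the log2 ratio over EV was -0.18 in TAZ4SA, -0.13 in YAP5SA, -0.06 in CAMTA1, -0.02 in TFE3, -0.09 in TAZ-CAMTA1 and -0.17 in YAP-TFE3. Under quantile normalisation of the same areas it was -0.28 in TAZ4SA but 0.05 in YAP5SA, 0.25 in CAMTA1, 0.22 in TFE3, 0.24 in TAZ-CAMTA1 and 0.13 in YAP-TFE3. The sign thus turned for every vector but TAZ4SA. TAZ4SA stayed below EV under all 4 scalings tried, though one of them put it at -0.03.

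A site of all 7 lists also lay 0.338 kb downstream of the MYC interval, from 128754338 to 128756132, with its main summits within 7450 to 7455 bp of the upstream edge. Further out, the strongest common sites lay mostly downstream, on the PVT1 side. Common sites as a whole numbered 23 upstream and 46 downstream. Chosen by the rank of a site's largest peak in its own list, taking the lowest of the 7 lists, 7 of the 8 leading distal sites were downstream, at 51.8, 67.2, 109.2, 156.6, 164.2, 169.0 and 433.4 kb. The eighth was 901.3 kb upstream. By the rank of the summed area among common sites, which was used for the promoter above, a site 174.9 kb downstream took its place and all 8 were downstream. The site at 109.2 kb, 4827 bp wide, had areas of 10820 in EV, 11537 in TAZ4SA, 18190 in YAP5SA, 23915 in CAMTA1, 12460 in TFE3, 22993 in TAZ-CAMTA1 and 27733 in YAP-TFE3.

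Sites were spread unevenly along the span. There were 109 sites upstream, 273 downstream and 2 at MYC. The span itself runs from -1048 kb to 1952 kb of the interval's upstream edge, so most of it lies downstream. EV alone had 58 peaks upstream and 106 downstream. The densest 250 kb, from 48 kb before the interval's edge to 202 kb after it, held 83 sites, 16 of them common to all lists. Between 100 and 500 kb downstream lay 121 sites, 24 of them common, whereas the 55 sites from 500 kb to 1 Mb downstream included 3 common ones. The longest stretches without a peak in any list were 119 kb, 114 kb and 107 kb. The first lay upstream and the others more than 1 Mb downstream.

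**Figure D2:**
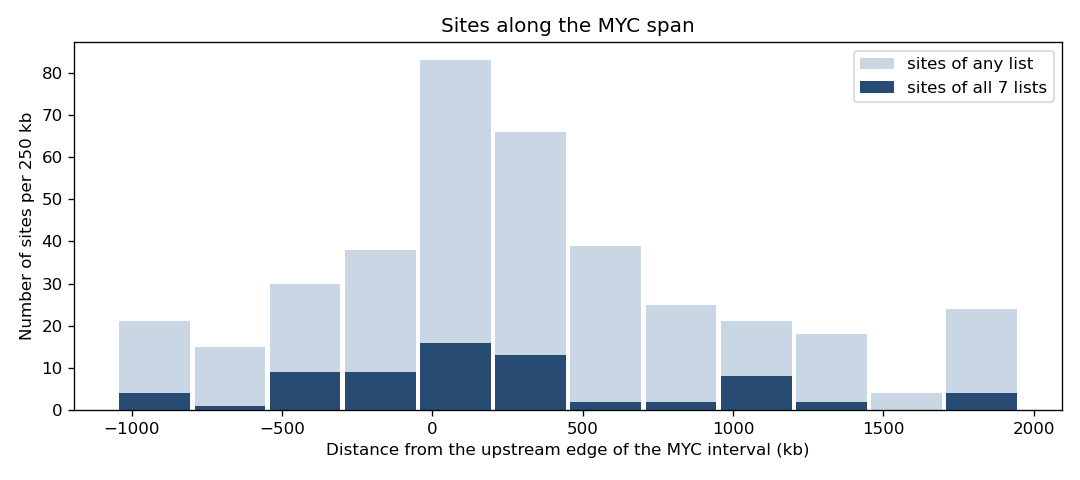
Number of merged sites per 250 kb by distance in kb from the upstream edge of the MYC interval. Light bars count sites of any list and dark bars sites of all 7 lists, and the tallest bin, around MYC, holds 83 sites with 16 common ones.

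Of the 384 sites, 70 were in all 7 lists, 18.2% (Wilson 95% interval 14.7 to 22.4%) against 16.2% over the genome. Those of 1 list numbered 151, 39.3% (34.6 to 44.3%) against 42.3% over the genome. The span was thus close to the genome in how widely its sites were shared. Single-list sites were small, with median widths of 70 to 100 bp in each list, though a wider site also meets another list more easily.

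YAP5SA contributed the most sites found in no other list. They were 59 of its 224 sites, 26.3% (21.0 to 32.5%), against 21.6% over the genome. Of these 59, 48 lay downstream of MYC, as did 168 of all its 224 sites. TAZ-CAMTA1 had 39 of 218 (17.9%, against 16.4% over the genome). The shares were lower elsewhere: TAZ4SA had 13 of 126 (10.3%, against 16.4%) and CAMTA1 had 17 of 200 (8.5%, against 11.6%). YAP-TFE3 had 14 of 195, 7.18% (4.32 to 11.7%), below the 15.0% of its whole list. EV had 7 of 107 (6.54%, against 9.79%) and TFE3 had 2 of 128 (1.56%, against 1.32%). The largest single-list sites were one of YAP5SA 139.2 kb upstream, with an area of 815, and one of TAZ-CAMTA1 269.1 kb upstream, with an area of 360.

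The lists were then compared with EV, which all 6 comparisons share. In TAZ4SA 55 of 163 peaks of the span had no EV peak, 33.7% (26.9 to 41.3%), against 33.9% of the whole list. In YAP5SA they were 159 of 276, 57.6% (51.7 to 63.3%), against 47.9%. In TAZ-CAMTA1 they were 141 of 247, 57.1% (50.9 to 63.1%), against 51.5%, and in YAP-TFE3 120 of 234, 51.3% (44.9 to 57.6%), against 50.7%. The TAZ4SA share sat on its background, and the YAP5SA share lay above its own, which its interval left out. The partners gave 132 of 244 in CAMTA1, 54.1% (47.8 to 60.2%), against 46.8%, and 56 of 171 in TFE3, 32.7% (26.2 to 40.1%), against 27.6%.

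**Figure D3:**
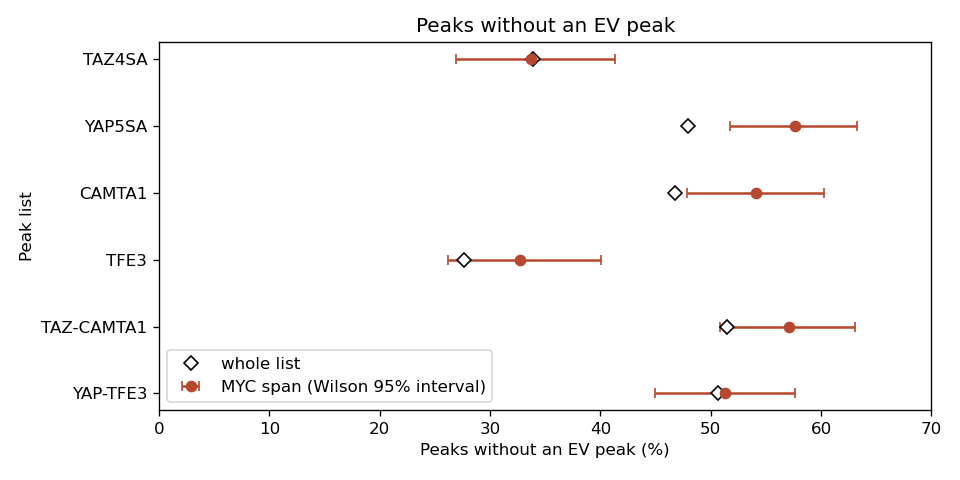
Share of peaks without an EV peak (%) in the MYC span (filled points with Wilson 95% intervals, counting error only) and in the whole list (open diamonds) for each vector. YAP5SA, at 57.6% against 47.9%, and CAMTA1, at 54.1% against 46.8%, have whole-list values outside their intervals.

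Peaks without an EV peak were small. Their median width was 102 bp in TAZ4SA, 121 bp in YAP5SA, 115 bp in TAZ-CAMTA1 and 132 bp in YAP-TFE3, while peaks that overlapped EV had medians of 296, 352, 704.5 and 549.5 bp. The lists differ in length and their depth is unknown, so a peak missing from EV may not have been detectable there. In every comparison the share was higher downstream of MYC than upstream, for example 62.5% of 200 peaks against 45.3% of 75 in YAP5SA and 39.6% of 111 against 22.9% of 48 in TAZ4SA. In TAZ-CAMTA1 it was 59.1% of 164 against 53.1% of 81.

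The share of EV peaks missing from another list was lower in the span than over the genome in all 6 comparisons, which was not tested. Of the 166 EV peaks of the span, TAZ4SA lacked 66, 39.8% (32.6 to 47.4%), against 49.5% over the genome. YAP5SA lacked 37 (22.3%, against 28.9%), CAMTA1 17 (10.2%, against 20.2%) and TFE3 31 (18.7%, against 30.8%). The fusions lacked 14 in TAZ-CAMTA1 (8.43%, against 14.4%) and 17 in YAP-TFE3 (10.2%, against 19.0%).

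The strongest peaks without EV were shared between vectors. A site 572.4 kb downstream had areas of 2281 in YAP5SA and 962 in TAZ4SA, against 356 in YAP-TFE3, 48.1 in TAZ-CAMTA1 and 23.4 in CAMTA1, and no peak in EV or TFE3. The nearest EV peak was 7575 bp away. A site 441.4 kb downstream, 798 bp from an EV peak, had areas of 1392 in YAP5SA, 1140 in TAZ4SA, 1108 in CAMTA1 and 212 in YAP-TFE3. The site 335.8 kb downstream, with areas of 1685 in YAP5SA, 823 in TAZ4SA and 762 in CAMTA1, lay 392 bp from an EV peak. It began at 129089817, just past the common site 334.9 kb downstream, which ended at 129089701 and is described below. The 2 are therefore not separate loci. At 582.2 kb downstream, 802 bp from an EV peak, YAP5SA had an area of 2033, against 35.1 in TAZ4SA and 81.2 in CAMTA1.

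For the fusions, the largest such peak of TAZ-CAMTA1 lay 18.4 kb downstream of MYC, with an area of 968. All 6 protein vectors had a peak at this site, 439 in YAP-TFE3, 384 in CAMTA1, 256 in TFE3, 236 in YAP5SA and 29.9 in TAZ4SA, and the nearest EV peak was 16318 bp away. The largest single peak of YAP-TFE3 without EV lay 1810.3 kb downstream with an area of 772. Summed over the peaks of a site, the one 91.2 kb upstream had areas of 805 in YAP-TFE3, 592 in TAZ-CAMTA1, 596 in CAMTA1, 165 in TAZ4SA, 84.0 in TFE3 and 30.1 in YAP5SA.

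Some combinations of lists were counted. Sites of TAZ4SA and YAP5SA alone numbered 10, 2.60% of the sites, against 0.988% over the genome, and the strongest lay 516.8 kb downstream with areas of 159 and 587. Sites of both fusions alone numbered 11, 2.86% against 3.15%. Sites of every list but EV numbered 8, 2.08% against 1.22%, and included one 1263.4 kb downstream with areas of 171 in TAZ4SA, 596 in YAP5SA, 291 in CAMTA1, 200.5 in TFE3, 214 in TAZ-CAMTA1 and 424 in YAP-TFE3. Sites of EV and neither fusion numbered 7, 1.82% against 4.79%, and the largest had an area of 31.1.

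At the 70 common sites, areas could be set beside EV in every list. This comparison was added after the data were seen, and the areas were scaled in 4 ways because the sources state no common normalisation: to the total area over common sites, which was computed first and is the value printed, to the median ratio, by quantile normalisation, and with the largest peak of a site in place of the sum. Only sites past 2-fold under all 4 are called higher or lower below. By this rule TAZ4SA was higher than EV at 15 sites (15.0% over all common sites) and lower at 9 (15.8%). YAP5SA was higher at 17 (15.3%) and lower at 6 (9.38%).

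The partners and fusions had fewer lower sites, as they also did over all common sites of the genome. CAMTA1 was higher at 15 (10.8%) and lower at 2 (3.55%), and TFE3 was higher at 8 (8.55%) and lower at 1 (4.64%). TAZ-CAMTA1 was higher at 5 (8.1%) and lower at 3 (2.52%), and YAP-TFE3 was higher at 8 (10.7%) and lower at 2 (4.22%). With 70 sites, 1 site is 1.43%, and most of these counts lie near their background.

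By the total area alone, the counts were 15 higher (16.4%) and 13 lower (23.8%) in TAZ4SA, 21 (22.4%) and 7 (10.2%) in YAP5SA, and 23 (24.5%) and 2 (3.98%) in CAMTA1. They were 13 (19.2%) and 2 (5.16%) in TFE3, 13 (24.0%) and 3 (2.75%) in TAZ-CAMTA1, and 13 (24.1%) and 2 (4.54%) in YAP-TFE3. Quantile normalisation moved the split most in the fusions. It gave 5 higher (8.20% over all common sites) and 8 lower (8.02%) in TAZ-CAMTA1. In YAP-TFE3 it gave 8 higher (10.9%) and 14 lower (10.5%). A balance of gain over loss at the common sites thus depended on the scaling there. Over all common sites this scaling made the higher and lower shares nearly equal in each list, so part of the shift belongs to the method. The split of CAMTA1 became 15 higher (10.8%) and 5 lower (10.5%). That of TFE3 became 8 (8.64%) and 3 (8.61%), and that of YAP5SA 17 (15.4%) and 9 (14.4%).

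Sites higher in TAZ4SA and YAP5SA lay on both sides of MYC. The site 334.9 kb downstream, from 129088856 to 129089701, had areas of 209.5 in EV, 1566 in TAZ4SA, 2501 in YAP5SA, 1735 in CAMTA1, 737 in TFE3, 995.5 in TAZ-CAMTA1 and 1703 in YAP-TFE3. Its log2 ratio over EV was 3.40 in TAZ4SA and 3.17 in YAP5SA. The site 440.4 kb upstream, with an area of 647 in EV, 3481 in TAZ4SA and 5573 in YAP5SA, had ratios of 2.92 and 2.70. Neither site was high with the activated proteins alone. At 334.9 kb downstream CAMTA1, TFE3 and YAP-TFE3 were higher too, with ratios of 2.25, 1.93 and 1.99. At 440.4 kb upstream CAMTA1, with an area of 3231, had a ratio of 1.52.

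At the site 1230.4 kb downstream, the activated proteins and a fusion moved apart, but this did not hold at the site next to it. Areas were 310.2 in EV, 1780.1 in TAZ4SA, 3138 in YAP5SA, 1372 in CAMTA1, 433 in TFE3, 142 in TAZ-CAMTA1 and 363 in YAP-TFE3. The log2 ratio was 3.01 in TAZ4SA, 2.93 in YAP5SA and -2.06 in TAZ-CAMTA1. This site ended at 129985430, just before a common site 1231.5 kb downstream that began at 129985507. They are therefore not separate loci. At the neighbour the ratio was 2.36 in TAZ4SA, 3.83 in YAP5SA and 0.88 in TAZ-CAMTA1, whose sign changed between scalings. Areas at the neighbour were 51.0 in EV and 179 in TAZ-CAMTA1. YAP5SA was also high 1717.7 kb downstream, with an area of 2247 against 123 in EV (log2 ratio 3.78), where TAZ4SA had 414.5 (2.25).

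All protein vectors were higher than EV at 1 site, 124.6 kb downstream, from 128878605 to 128880290. Its area was 128 in EV, 307 in TAZ4SA, 1726 in YAP5SA, 1316 in CAMTA1, 671 in TFE3, 1953 in TAZ-CAMTA1 and 2162 in YAP-TFE3. The log2 ratios were 1.76, 3.34, 2.56, 2.51, 3.00 and 3.04 in that order of vectors. At 410.6 kb downstream CAMTA1, TFE3 and both fusions were higher, with ratios of 2.94, 2.27, 2.28 and 2.02, whereas the areas were 144.5 in TAZ4SA and 355 in YAP5SA against 236 in EV.

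Lower sites of the activated proteins lay mainly upstream. The site 261.6 kb upstream had areas of 2688 in EV, 24.7 in TAZ4SA, 823 in YAP5SA, 3655 in CAMTA1, 2411 in TFE3, 6523.5 in TAZ-CAMTA1 and 2047 in YAP-TFE3. Its log2 ratio was -6.27 in TAZ4SA and -2.12 in YAP5SA. The TAZ4SA area here sits near the lowest area in any list (20.0), so the size of that ratio is poorly determined. At 95.2 kb upstream the area was 1912 in EV, 313.5 in TAZ4SA and 402.5 in YAP5SA, with ratios of -2.11 and -2.66. At 404.5 kb upstream it was 2877 in EV, 541 in TAZ4SA and 749.7 in YAP5SA, with ratios of -1.92 and -2.35. YAP-TFE3 was also lower than EV at 404.5 and 261.6 kb upstream, with a ratio of -1.43 at each, and these were its only 2 lower sites. CAMTA1, TFE3 and TAZ-CAMTA1 were past 2-fold at none of these 3 upstream sites. At 226.6 kb upstream, by contrast, the partners were lower too, with ratios of -1.16 in CAMTA1 and -2.91 in TFE3. The ratios there were -2.31 in TAZ4SA and -3.43 in YAP5SA. This small site, with an EV area of 382, began at 128520860, just past a common site that ended at 128520765. They are therefore not separate loci. That larger neighbour, 227.2 kb upstream, had an EV area of 4232 and was not past 2-fold. Its ratios were -0.67 in TAZ4SA, -0.62 in YAP5SA, 0.006 in CAMTA1 and -0.12 in TFE3.

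**Figure D4:**
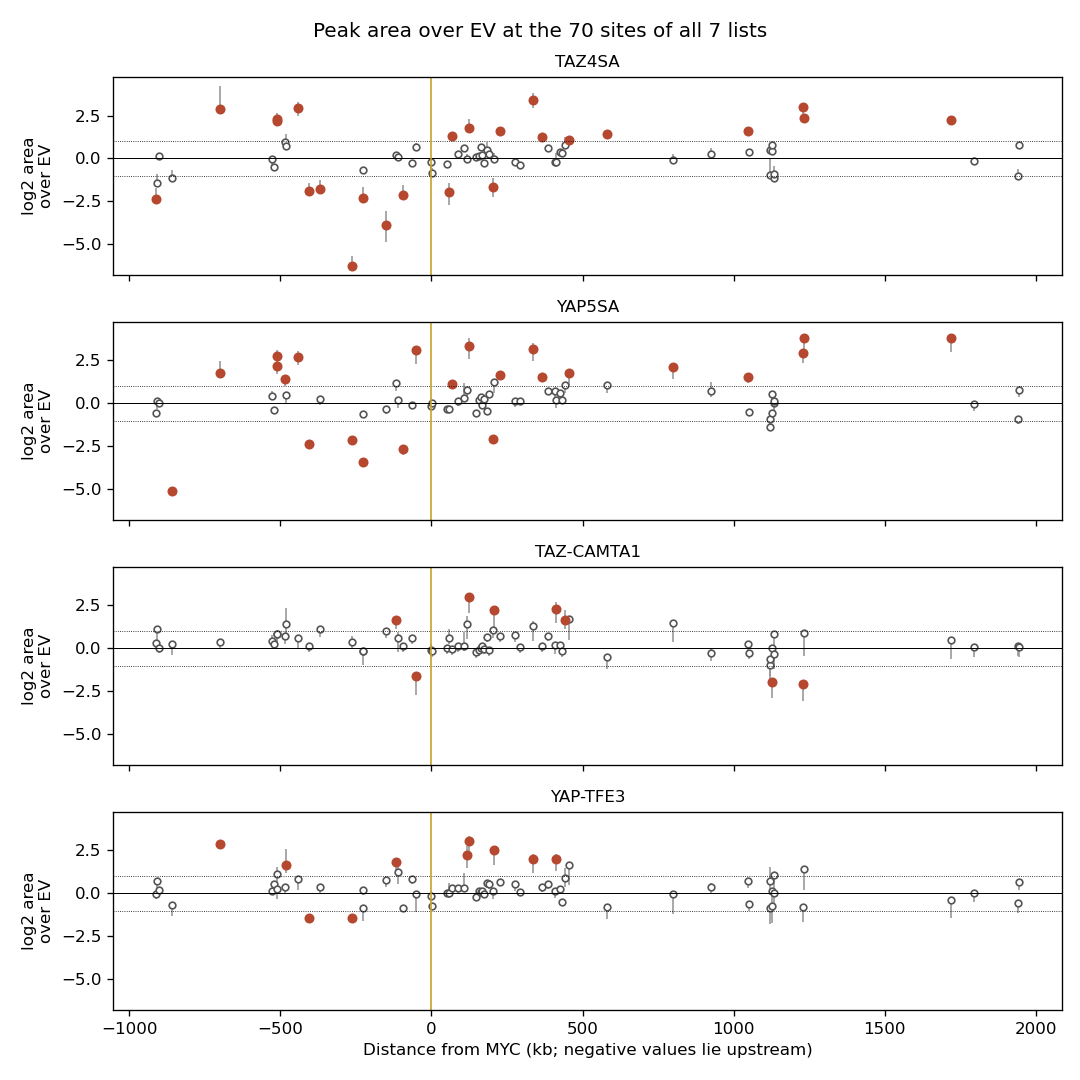
Log2 ratio of peak area over EV (scaled to the total area) at the 70 sites of all 7 lists, by distance in kb from MYC, in TAZ4SA, YAP5SA, TAZ-CAMTA1 and YAP-TFE3. Grey lines give the range over 4 scalings and filled points are past 2-fold under all of them, 24 in TAZ4SA, 23 in YAP5SA, 8 in TAZ-CAMTA1 and 10 in YAP-TFE3.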

How the data were processed

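ATAC-seq was performed on 20 libraries of SW872 cells. Per the study's methods, the authors trimmed reads with NGmerge, aligned them to hg19 and called peaks with Genrich in its ATAC mode, removing duplicates, blacklisted regions, mitochondrial reads and unplaced contigs, whereas the submitters' processing notes name Bowtie 0.12.2 and mm8. Chromosome 1 peaks ended at 249240671, within hg19. The methods state that peaks were called on each replicate and that DiffBind then set a consensus of them. The deposited files hold 1 list per vector, and how these lists relate to the replicate calls, and the depth, are not given in the sources used here. The authors deposited for each peak its position, a score (not used), its area as signal, the −log10 p-value of its summit and a −log10 q-value (not used). Groups came from the sample titles.

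Peaks were intersected and merged in Python 3.11.15 with pandas 2.3.3 and numpy 2.4.6, checked against bedtools 2.31.1 on simulated peaks. An overlap of at least 1 bp counted as shared. Wilson 95% intervals came from scipy 1.17.1 and cover counting error only. No test between vectors was run. Named sites were those at MYC, the 8 strongest common distal sites, the 3 largest peaks without EV per vector, the 2 largest single-list sites per list and the 3 largest of 4 list combinations. Common sites named for their area ratio, and the list combinations beyond these, were chosen after their values were seen. The area comparison and its 4 scalings were also added after the data were seen. The total-area scaling was computed first. Quantile normalisation was then tried as the main scaling and set back, since nothing planned favoured it and it turned the sign at MYC. The span, members and lists were chosen with earlier results of these data known. Gene names came from RefSeq (GRCh38.p14) without coordinates, and an hg19 annotation was not used here.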

Additional observations from a re-analysis of the deposited data

How the results depend on the processing

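No paired analysis was possible because each vector has a single list without library values, and leaving out replicates could not be run for the same reason. Depth is unknown, so absence of a peak is not absence of accessibility. Of the values that answer a comparison, 55 stayed close to the first value and 48 moved. Shares of span peaks without an EV peak follow, with those of the whole list in brackets. At a minimum summit −log10 p of 4 they were 47.2% (42.0%) in CAMTA1, 23.3% (23.0%) in TFE3, 43.2% (44.4%) in TAZ-CAMTA1 and 44.2% (45.9%) in YAP-TFE3. The TFE3 share thus lay near its list at this minimum. At a minimum of 5 the shares were 51.1% (40.0%) in YAP5SA, 42.6% (40.0%) in CAMTA1, 22.0% (18.9%) in TFE3, 38.9% (42.7%) in TAZ-CAMTA1 and 42.3% (45.7%) in YAP-TFE3. When lists were cut to the same length by −log10 p they were 47.9% (36.6%) in YAP5SA, 39.9% (34.9%) in CAMTA1, 37.8% (36.7%) in TAZ-CAMTA1 and 38.8% (37.1%) in YAP-TFE3. By area they were 47.0% (35.9%), 40.2% (34.3%), 38.2% (36.1%) and 40.0% (36.5%). Both fusions thus lay near their lists when cut by −log10 p. With 250 bp windows on both sides of summits the shares were 50.7% (41.5%) in YAP5SA, 25.7% (22.5%) in TFE3, 49.4% (42.2%) in TAZ-CAMTA1 and 43.6% (42.2%) in YAP-TFE3. With peaks within 200 bp counted as shared they were 50.7% (40.4%) in YAP5SA, 24.6% (20.5%) in TFE3 and 50.6% (43.6%) in TAZ-CAMTA1. With an overlap of 50% of both peaks they were 60.1% in TAZ4SA, 72.5% in YAP5SA, 71.3% in CAMTA1, 48.5% in TFE3, 73.7% in TAZ-CAMTA1 and 67.1% in YAP-TFE3, against 66.6%, 69.1%, 66.7%, 49.3%, 71.5% and 69.6% of the whole lists, so that TAZ4SA, TFE3 and YAP-TFE3 lay below them. Within 500 kb of MYC the TAZ4SA share was 25.8%, against 33.9%. The shares of whole lists moved too. Those of YAP5SA and CAMTA1 in the span stayed above their whole lists under all 8 alternatives, for example 51.1% against 40.0% and 42.6% against 40.0% at the minimum of 5. No intervals were computed for the alternatives, so whether each excess passes counting error is not known. The excess was smallest in CAMTA1 at the minimum of 5, and in YAP5SA with the overlap of 50% (72.5% against 69.1%). TAZ-CAMTA1 lay below its list at the minimum of 4 (44.4%) and of 5 (42.7%), as did YAP-TFE3 (45.9% and 45.7%). TAZ4SA lay on either side of its list. Sites of 1 list numbered 98 and 48 at the 2 thresholds, 92 and 81 with lists of the same length, 97 with windows and 80 within 500 kb, where 44 sites were common. A promoter window of 5 kb gave 23 peaks in place of 14. The scalings of area were chosen after seeing the data. Quantile normalisation gave 15 higher (10.8% over all common sites) and 5 lower (10.5%) in CAMTA1, and 8 higher (8.64%) in TFE3. It gave 5 higher (8.20%) and 8 lower (8.02%) in TAZ-CAMTA1, and 8 higher (10.9%) and 14 lower (10.5%) in YAP-TFE3. The median ratio gave 7 lower (6.45%) in YAP-TFE3, and the largest peak gave 1 lower (5.76%) in TFE3. The log2 ratio at the MYC promoter reversed under quantile normalisation in YAP5SA (0.046), CAMTA1 (0.25), TFE3 (0.22), TAZ-CAMTA1 (0.24) and YAP-TFE3 (0.13), and with the largest peak in CAMTA1 (0.027) and TFE3 (0.10). The cause was not tested.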
